A study of Mus musculus with 12 samples.

Results

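The genes described here build the cornified envelope of the skin or belong to its calcium-binding and crosslinking families. They were chosen by name in the array's annotation, as genes whose symbol begins with Sprr, Lce, S100a, Tgm or Cdsn, together with involucrin (Ivl), loricrin (Lor), filaggrin (Flg), hornerin (Hrnr), repetin (Rptn), trichohyalin (Tchh) and its relative Tchhl1. The rule found 50 of the 18193 genes measured, each read by 1 probe set. They comprise 6 transglutaminases, 12 S100a genes, 9 Sprr genes, 11 Lce1 genes, 4 Lce3 genes, the 2 precursors Ivl and Lor, 5 genes of the filaggrin type and Cdsn.

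Expression was measured on 12 Affymetrix mouse arrays, 6 of CD34+ keratinocytes and 6 of CD34- keratinocytes. Magnetic sorting split skin keratinocytes into these fractions, from mice labelled C57 DBA that were pooled by 6 or more for each of 3 isolations, with no treatment or genotype named. In mouse skin CD34 is a surface glycoprotein of stem cells in the bulge of the hair follicle, whereas CD34- cells are all that remained and are no single cell type. Each RNA was put on 2 arrays, so that n = 6 is a number of arrays for 3 RNA samples, and the p-values are too small wherever arrays that share RNA are alike.

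The cornified envelope is a protein shell that forms under the membrane of a keratinocyte as it dies and joins the outer layer of the skin. Transglutaminases crosslink involucrin, loricrin, the small proline-rich proteins (Sprr) and the late cornified envelope proteins (Lce) into it, and filaggrin binds keratin filaments. Most of these genes, with the S100a genes for small calcium-binding EF-hand proteins, lie next to each other in the epidermal differentiation complex. In RefSeq 43 of the 50 genes lie on chromosome 3, while the transglutaminases and Cdsn lie elsewhere.

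Promoters are printed for 2 genes that were higher in CD34+ cells, for 1 that was lower, and for the 2 precursors, which did not pass the test. Each window runs from 250 bases before to 50 bases after the gene's start, 5′ to 3′ on the gene's strand, from RefSeq on build GRCm38.p6. Capitals mark matches, on either strand, to the letters of 6 motifs. Positions are counted from the start, with negative numbers before it.
Tgm5: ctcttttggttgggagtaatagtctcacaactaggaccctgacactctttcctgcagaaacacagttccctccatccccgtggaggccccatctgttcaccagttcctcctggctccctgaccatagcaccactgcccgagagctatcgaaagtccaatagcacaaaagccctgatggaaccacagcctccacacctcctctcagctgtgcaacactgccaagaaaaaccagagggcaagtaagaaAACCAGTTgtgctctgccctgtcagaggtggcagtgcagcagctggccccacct
S100a4: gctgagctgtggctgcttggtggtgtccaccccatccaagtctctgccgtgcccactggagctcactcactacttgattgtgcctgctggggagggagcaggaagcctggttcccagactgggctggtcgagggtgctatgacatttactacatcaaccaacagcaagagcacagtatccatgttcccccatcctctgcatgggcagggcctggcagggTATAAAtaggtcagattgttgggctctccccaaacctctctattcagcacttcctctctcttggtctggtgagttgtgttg
Sprr1a: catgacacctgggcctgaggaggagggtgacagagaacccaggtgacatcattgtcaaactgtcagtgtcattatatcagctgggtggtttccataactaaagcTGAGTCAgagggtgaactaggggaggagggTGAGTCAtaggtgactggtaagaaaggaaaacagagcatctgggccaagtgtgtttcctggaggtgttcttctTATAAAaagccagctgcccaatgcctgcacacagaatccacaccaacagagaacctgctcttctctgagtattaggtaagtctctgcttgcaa
Ivl: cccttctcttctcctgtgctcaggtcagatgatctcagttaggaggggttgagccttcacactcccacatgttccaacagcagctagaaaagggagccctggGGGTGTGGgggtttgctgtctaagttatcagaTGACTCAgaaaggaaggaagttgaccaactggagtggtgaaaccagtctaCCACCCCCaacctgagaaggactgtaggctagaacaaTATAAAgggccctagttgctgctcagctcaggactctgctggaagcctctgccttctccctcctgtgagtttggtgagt
Lor: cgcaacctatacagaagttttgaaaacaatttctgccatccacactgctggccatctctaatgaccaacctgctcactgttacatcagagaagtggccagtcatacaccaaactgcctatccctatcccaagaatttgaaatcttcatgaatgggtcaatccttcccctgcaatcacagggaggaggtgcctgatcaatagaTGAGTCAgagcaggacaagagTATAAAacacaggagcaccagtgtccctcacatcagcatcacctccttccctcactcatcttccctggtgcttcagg

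The Tgm5 window is chr2:121085792-121086091 (minus strand), and its match is AACNGGTT, the letters of a grainyhead-like (GRHL) site, at position -4. The S100a4 window is chr3:90603520-90603819 (plus strand), with the TATA box letters TATAAA at -31. The Sprr1a window is chr3:92485832-92486131 (minus strand), with TGANTCA, the letters of an AP-1 site, at -146 and -116 and TATAAA at -43. The Ivl window is chr3:92573686-92573985 (minus strand), with TGANTCA at -116, TATAAA at -29 and GGGNGTGG, the letters of a KLF site, at -148 and -66. The Lor window is chr3:92083093-92083392 (minus strand), with TGANTCA at -48 and TATAAA at -27.

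RefSeq promoters were at hand for 45 of the 50 genes, in 52 windows, and 16 of the 45 genes held none of the 6 motifs. TGANTCA stood in 14 windows (26.9%), each of another gene, against 7.81% of all 32851 mouse promoters. Every Sprr gene with a window held it except Sprr3. TATAAA stood in 42.3% of the windows and in 13.6% of all promoters, and AACNGGTT in 7.69% (Rptn, S100a3, S100a9 and Tgm5) against 2.09%. TTGCNNAA, the letters of a C/EBP site, stood in 15.4% against 10.8% of all promoters. GGGNGTGG stood in 5.77% against 17.6%, and the ETS letters CCGGAAG in 0 of the 52 windows against 8.86%. No match overlapped one of another motif. These matches describe the sequence and are no evidence of binding.

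The sort marker Cd34 read 9.14, 10.37 and 10.58 (lowest, median and highest array, log2 scale) in CD34+ arrays, against 2.95, 3.18 and 3.71 in CD34- arrays. The keratins Krt5 and Krt14, which define basal keratinocytes, had medians of 12.14 and 11.78 in CD34+ arrays and of 13.20 and 13.16 in CD34- arrays, so that both fractions carried them. Both were lower in CD34+ arrays with no overlap, Krt5 at -1.04 (limma adjusted p = 0.00123) and Krt14 at -1.37 (limma adjusted p = 0.00102). The Trpn control probe sets, which match no mouse gene, read 2.31 to 2.95 and mark the low end of the scale. Signal gaps between 3' and 5' control probe sets, which grow as RNA or its copy is shortened, averaged 4.54 ± 0.66 for Actb in CD34+ arrays and 2.48 ± 0.49 in CD34- arrays (SD, n = 6). For Gapdh the gaps differed less, at 4.01 ± 0.36 in CD34+ arrays and 3.41 ± 0.16 in CD34- arrays. CD34+ arrays 1, 3 and 5 spanned less of the scale (SD of 1.93 to 2.08 over their probe sets) than the remaining 9 arrays (2.19 to 2.32), and counts of changed genes are given with and without them. The part of these differences between arrays in the results was not tested.

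Most genes of the cornified envelope did not pass the test between the fractions, and the 6 whose arrays did not overlap between fractions were 5 S100a genes and 1 transglutaminase. Of the 50 genes 7 were higher in CD34+ cells (limma adjusted p under 0.05), namely Tgm5, S100a4, S100a6, S100a1, S100a3, Lce1i and Lce1h. Another 2, S100a14 and Sprr1a, were lower, and 41 did not pass. Over all 18193 genes 7.99% were higher and 18.1% lower by the same rule, 26.1% in all. The median log2 fold change of CD34+ over CD34- was 0.20 over the 50 genes and 0.04 over all genes. Without CD34+ arrays 1, 3 and 5 these medians were 0.15 and 0.006. Above 0 were 37 of the 50 genes and 9930 of all 18193, and many of the 50 lay close to 0. For 5 genes higher in CD34+ cells and 1 lower, the arrays of the fractions did not overlap at all, where 4.17% and 8.77% of all genes did so. Without CD34+ arrays 1, 3 and 5, 5 of the 50 genes were higher and 3 lower, and Lce1h and Lce1i were no longer among them. Of all 18193 genes 1602 were then higher and 1900 lower. These counts over all genes are also the background for the gene lists read below. In RNA from pools of cells, fewer cells of a type and less RNA per cell cannot be told apart.

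**Figure D1:**
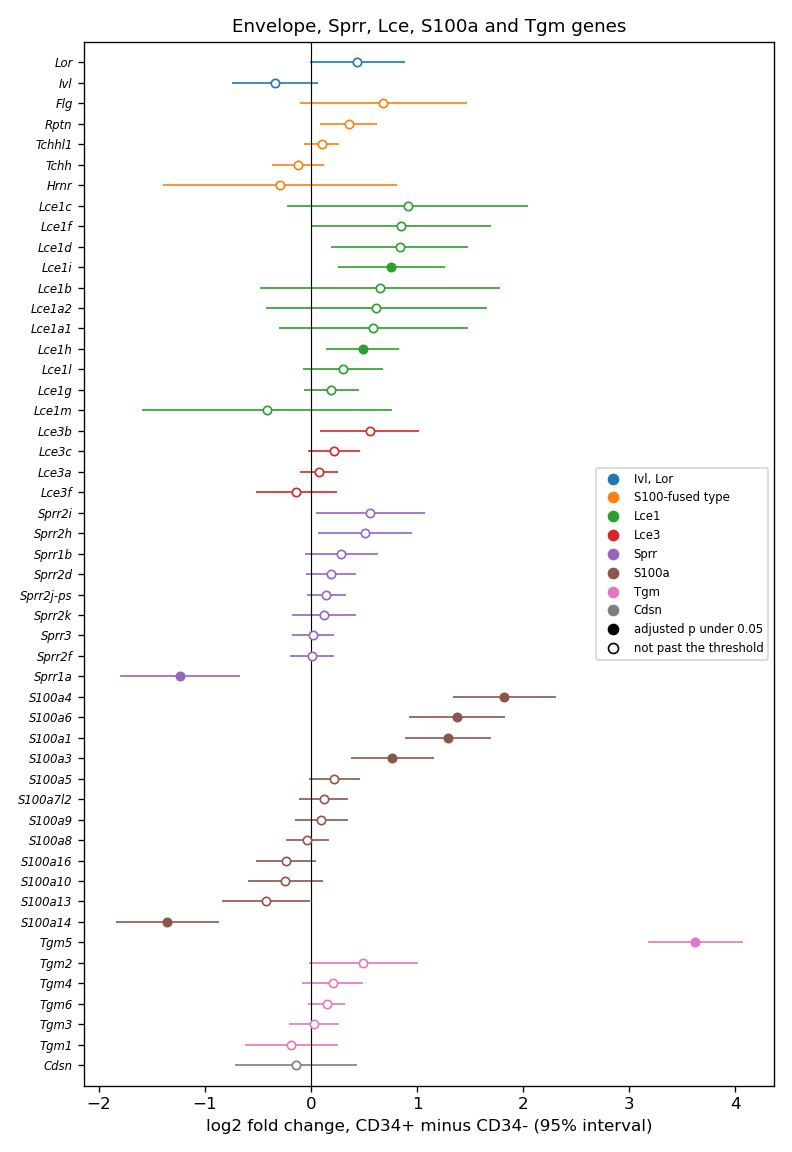
Log2 fold change of CD34+ over CD34- keratinocytes for the 50 genes, grouped by family, with 95% intervals from limma. Filled points passed an adjusted p of 0.05. Tgm5 lies farthest right at 3.63, and most Lce1 genes lie above 0 with intervals that reach it.

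Transglutaminases form the bonds of the envelope, and Tgm5 was the one of the 6 measured that passed the test. Tgm5, a transglutaminase known from human epidermis to crosslink loricrin and involucrin, read 9.37, 10.38 and 10.81 in CD34+ arrays, against 6.42, 6.59 and 6.78 in CD34- arrays. Every CD34+ array lay more than 2 log2 units above every CD34- array. The fractions differed by a log2 fold change of 3.63 (SE 0.21, limma adjusted p = 1.04e-07), a 12.3-fold higher level. Under the 24 alternative settings it stayed between 3.51 and 3.97. The array tied 1 probe set to Tgm5.

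The other transglutaminases did not pass. Tgm1, the membrane-bound enzyme of keratinocytes, read 3.60, 4.44 and 4.76 in CD34+ arrays, against 4.00, 4.53 and 4.91 in CD34- arrays. Its log2 fold change of -0.19 had a 95% interval of -0.63 to 0.25, and it was 0.12 without CD34+ arrays 1, 3 and 5. Tgm3, an enzyme of the epidermis and the hair follicle, stood at 0.03 (-0.21 to 0.26) and changed sign under a further quantile normalization, median centring and 6 further settings. Tgm2, the widely expressed tissue transglutaminase, read 5.27, 5.61 and 7.06 in CD34+ arrays, against 5.16, 5.30 and 5.53 in CD34- arrays. The high value came from CD34+ array 2, and the log2 fold change of 0.49 did not pass (limma adjusted p = 0.140). Of its 5 other probe sets, at 0.12 to 0.54, the one at 0.31 passed over all probe sets (limma adjusted p = 0.0416). Tgm4, known from the prostate, stood at 0.20, and Tgm6 at 0.15 with every array within the range of the Trpn controls.

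The S100a genes had the most calls of any family, 4 higher and 1 lower of 12, with a median log2 fold change of 0.11. S100a4, a calcium sensor also known as a fibroblast protein, read 9.47, 10.17 and 10.45 in CD34+ arrays, against 7.50, 8.30 and 8.91 in CD34- arrays. The groups did not overlap, and the change was 1.82 (SE 0.23, limma adjusted p = 8.51e-05) or 3.54-fold. S100a6, calcyclin, read 10.78, 11.48 and 12.00 in CD34+ arrays, against 9.71, 10.02 and 10.72 in CD34- arrays. Its lowest CD34+ array lay just above the highest CD34- array, with a log2 fold change of 1.38 (SE 0.21, limma adjusted p = 0.000385), 2.59-fold.

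S100a1, best known from heart muscle, read 7.08, 7.74 and 8.40 in CD34+ arrays, against 6.13, 6.41 and 6.62 in CD34- arrays. These groups did not overlap, and S100a1 rose by 1.29 (SE 0.19, limma adjusted p = 0.000296). Another probe set of S100a1 was at 0.27 over all probe sets (limma adjusted p = 0.143). S100a3, a protein of the hair cuticle, read 3.25, 3.59 and 4.39 in CD34+ arrays, against 2.70, 3.03 and 3.13 in CD34- arrays. The groups did not overlap, but the CD34- values lay near the Trpn controls, and the rise was 0.77 (SE 0.18, limma adjusted p = 0.00720).

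In the other direction, S100a14, an S100 protein of epithelia, read 7.69, 7.95 and 9.05 in CD34+ arrays, against 9.08, 9.47 and 10.04 in CD34- arrays. The highest CD34+ array lay just under the lowest CD34- array. S100a14 fell by 1.35 on the log2 scale (SE 0.23, limma adjusted p = 0.000724), 2.56-fold. In RefSeq order S100a14 stands between S100a13 and S100a16 on chromosome 3, with S100a1 on one side of these and S100a3, S100a4, S100a5 and S100a6 on the other. S100a13 (-0.42, limma adjusted p = 0.119) and S100a16 (-0.24, limma adjusted p = 0.186) did not pass by the probe sets used, and S100a5, near the low end at 2.37 to 3.10, was at 0.22 (limma adjusted p = 0.148). On means of arrays 1-2, 3-4 and 5-6, S100a13 was lower (limma adjusted p = 0.0349).

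The probe sets of S100a10 and of S100a16 gave differing results. S100a10, which pairs with annexin A2, read 10.90, 11.48 and 11.91 in CD34+ arrays, against 11.46, 11.63 and 11.77 in CD34- arrays. These groups overlapped, and the probe set used was at -0.24 (limma adjusted p = 0.280). Another probe set of S100a10 read 8.26, 8.46 and 9.21 in CD34+ arrays, against 8.99, 10.12 and 10.26 in CD34- arrays, and passed at -1.26 (limma adjusted p = 0.00229 over all probe sets), while its remaining one was at 0.03. By the probe set used, S100a16 read 11.32, 11.81 and 12.075 in CD34+ arrays, against 11.73, 11.96 and 12.15 in CD34- arrays. For S100a16 another probe set passed too, at -0.61 (limma adjusted p = 0.0159). With the mean of all probe sets of a gene, S100a10 (-0.49, limma adjusted p = 0.0322) and S100a16 (-0.42, limma adjusted p = 0.0333) were both lower.

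S100a8 and S100a9, the subunits of calprotectin that neutrophils and inflamed skin make in large amounts, were both low. S100a8 read 3.32, 3.47 and 3.56 in CD34+ arrays, against 3.35, 3.44 and 3.75 in CD34- arrays. S100a9 read 3.10, 3.21 and 3.69 in CD34+ arrays, against 2.95, 3.21 and 3.39 in CD34- arrays. Neither passed, at -0.03 and 0.10, and the groups overlapped for both. The sign of S100a9 turned to -0.02 under a further quantile normalization and to -0.01 under median centring. Of 10 neutrophil markers 2 were higher in CD34+ arrays, Cxcr2 (0.52) and Mmp8 (0.46). Their summed level on the linear scale was 123 to 205 in CD34+ arrays and 118 to 142 in CD34- arrays. Neither marker passed without CD34+ arrays 1, 3 and 5. S100a7l2, at 0.12, lay within the range of the Trpn controls on every array.

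**Figure D2:**
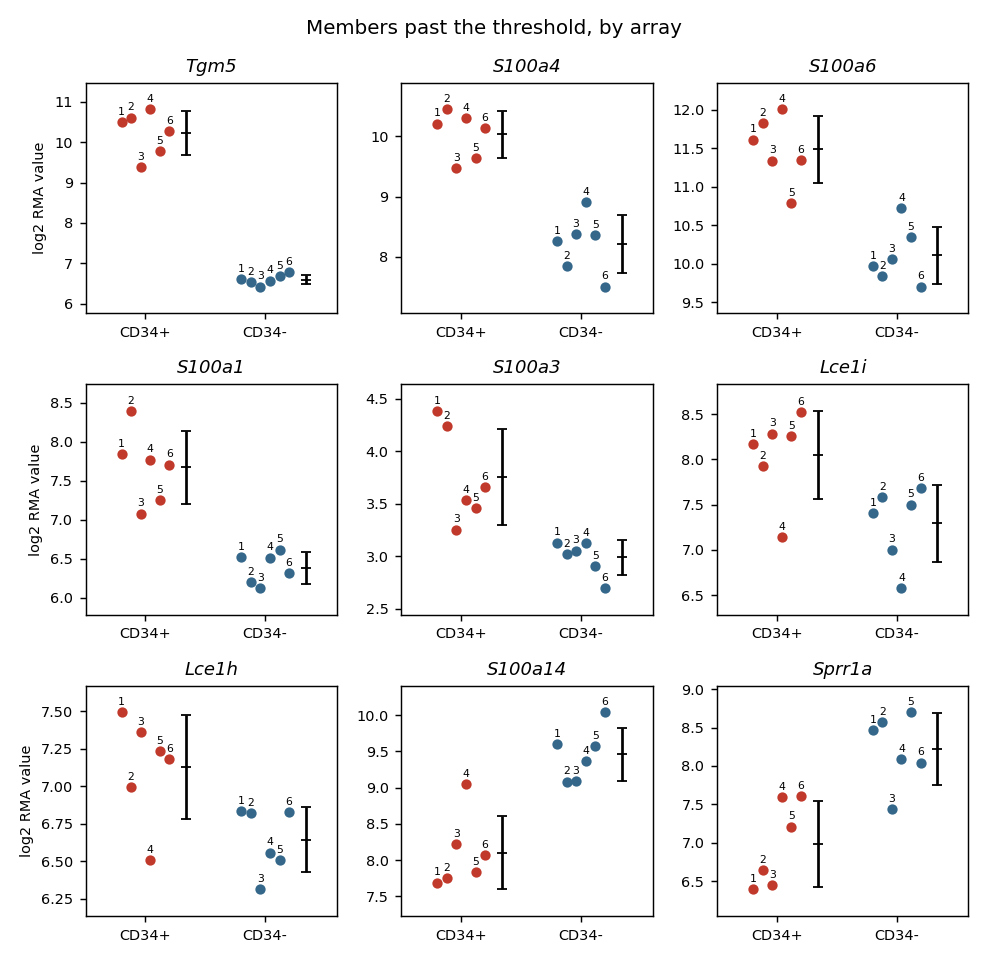
Log2 level on each array of the 9 genes that passed the test, CD34+ left and CD34- right in each panel, with array numbers as points and mean ± SD as bars (n = 6). The fractions are apart for 6 genes and overlap for Sprr1a, Lce1h and Lce1i.

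Markers of other cells of the skin moved with the fraction as well. Of 10 dermal fibroblast markers 5 were higher in CD34+ arrays, with a median of 1.04 and a summed linear level of 1164.7 to 5124.6 in CD34+ arrays against 756 to 1659.5 in CD34- arrays. Col1a2, a collagen chain, read 7.67 to 8.88 in CD34+ arrays and 4.20 to 5.58 in CD34- arrays. The median was 0.42 with 4 markers higher without CD34+ arrays 1, 3 and 5, while S100a4 was at 2.09 (limma adjusted p = 0.000262) and S100a6 at 1.62. The collagen genes Col1a2 (3.24), Col5a2 (3.04) and Col1a1 (1.32) were then as high as with all arrays (3.15, 3.02 and 1.14). Dcn, at 1.85 then and 2.21 with all arrays, passed both times. Col3a1 (0.54), Lum (0.30), Mmp2 (0.11), Twist2 (0.02), Pdgfra (-0.16) and Vim (-1.26) did not pass then. With all arrays they were at 2.20, 0.63, -0.20, 0.10, 0.95 and 0.68, and only Lum passed. T cell markers were lower in CD34+ arrays, 9 of 9, also without the 3 arrays. Their summed levels were 418 to 975 in CD34+ arrays against 1766 to 3407 in CD34- arrays. Of 12 Langerhans and myeloid markers 6 were lower (5 without the 3 arrays), at 1086.5 to 1689.6 in CD34+ arrays against 2105 to 3087 in CD34- arrays. Of 7 endothelial markers 0 passed in limma, against 2 at an unadjusted p under 0.05, at 121 to 162 in CD34+ arrays against 114 to 130.1 in CD34- arrays. Of 9 melanocyte markers 2 were higher and 1 lower (1 and 1 without the 3 arrays), at 1090.3 to 2139 in CD34+ arrays against 393 to 507 in CD34- arrays. Mitf was higher by 3.13, but 4 of the 9 markers were below 0. The median of the 9 was 0.315, and -0.02 without the 3 arrays. The part of all these other cells in the S100a results was not tested.

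Hair lineage and upper follicle markers were read beside S100a3 and the transglutaminases. Of 13 markers of the hair cuticle and inner root sheath 2 were higher in CD34+ arrays, the hair homeobox gene Hoxc13 (2.11, limma adjusted p = 0.000165) and the keratin Krt71 (0.30, limma adjusted p = 0.0456). Krt71 did not pass without CD34+ arrays 1, 3 and 5 (limma adjusted p = 0.171). Their summed level was 447 to 718 in CD34+ arrays and 384 to 551 in CD34- arrays. Upper follicle and isthmus markers had 4 of 7 lower (2 without the 3 arrays), at 4628 to 10996 in CD34+ arrays against 8954 to 13373 in CD34- arrays. Basal markers had 7 of 11 lower (3 without the 3 arrays), at 18770 to 30802 in CD34+ arrays against 28660 to 43541 in CD34- arrays. Bulge markers had 11 of 12 higher, also without the 3 arrays, at 15303 to 28810 in CD34+ arrays against 9969 to 14717 in CD34- arrays. The part of these cells in the results on S100a3 and Tgm5 was not tested.

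Among the 9 Sprr genes, whose proteins crosslink other envelope proteins, only Sprr1a passed. Sprr1a, which is induced by stress and injury of the skin, read 6.40, 6.93 and 7.61 in CD34+ arrays, against 7.44, 8.28 and 8.70 in CD34- arrays. CD34+ arrays 4 (7.59) and 6 (7.61) reached into the range of the CD34- arrays, above CD34- array 3 (7.44). Sprr1a fell by 1.24 on the log2 scale (SE 0.26, limma adjusted p = 0.00349), 2.35-fold, and by 0.94 without CD34+ arrays 1, 3 and 5 (limma adjusted p = 0.0425). The other 8 were all above 0, from 0.01 for Sprr2f to 0.56 for Sprr2i, and none passed. Sprr2i read 3.37, 3.88 and 4.76 in CD34+ arrays, against 3.18, 3.35 and 3.67 in CD34- arrays, and Sprr2h was at 0.51. Sprr1b (0.29), Sprr2d (0.19), Sprr2j-ps (0.15), Sprr2k (0.12) and Sprr3 (0.02) lay nearer to 0. On means of arrays 1-2, 3-4 and 5-6 Sprr2i was higher (limma adjusted p = 0.00904). Without CD34+ arrays 1, 3 and 5 it was at -0.00018, and the family median fell to -0.00018, against 0.15 with all arrays. Sprr2f and Sprr3 also turned negative under a further quantile normalization (-0.07 and -0.10) and under median centring (-0.09 and -0.08). Sprr2f and Sprr2j-ps lay within or below the range of the Trpn controls on every array.

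The Lce1 genes, expressed late in epidermal differentiation, lay mostly above 0 with few calls. The log2 fold change was above 0 for 10 of 11, with a median of 0.62, and Lce1i and Lce1h passed. Lce1i read 7.14, 8.21 and 8.52 in CD34+ arrays, against 6.58, 7.45 and 7.68 in CD34- arrays. The groups overlapped, and Lce1i rose by 0.76 (SE 0.23, limma adjusted p = 0.0291). Lce1h read 6.50, 7.21 and 7.49 in CD34+ arrays, against 6.31, 6.69 and 6.83 in CD34- arrays. It too overlapped, at 0.49 (SE 0.16, limma adjusted p = 0.0380).

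Both Lce1 calls lay near the threshold and were lost on leaving out any 1 of several arrays. On leaving out single arrays the log2 fold change was 0.62 to 0.94 for Lce1i and 0.41 to 0.61 for Lce1h. Lce1i did not pass without any 1 of CD34+ arrays 1, 3, 5 and 6 or CD34- arrays 3 and 4. For Lce1h the same arrays and CD34- array 5 each ended the call, with limma adjusted p-values of up to 0.0893. Lce1i without CD34+ arrays 1, 3 and 5 together was at 0.57 (limma adjusted p = 0.237) and Lce1h at 0.25 (limma adjusted p = 0.361). On means of arrays 1-2, 3-4 and 5-6 Lce1i was lost (limma adjusted p = 0.0551). After each array was centred on its median the limma adjusted p was 0.0505 for Lce1i and 0.0698 for Lce1h. Both genes are read by probe sets of the suffix x, which marks probes that also match other sequences, as are 9 of the 50 in all. The Lce1 genes resemble each other closely, so their single values may mix several copies.

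Most of the remaining Lce1 genes varied widely between arrays of a fraction. Lce1c read 7.10, 9.41 and 9.95 in CD34+ arrays, against 6.81, 8.41 and 8.66 in CD34- arrays, a log2 fold change of 0.91 with a 95% interval of -0.22 to 2.04. Lce1a2 read 7.63, 9.71 and 10.21 in CD34+ arrays, against 7.46, 8.89 and 9.31 in CD34- arrays. Its difference of 0.62 had an interval of -0.42 to 1.66. Lce1d came close to the threshold at 0.84 (limma adjusted p = 0.0554), followed by Lce1f at 0.85 (limma adjusted p = 0.122). Lce1b (0.65), Lce1a1 (0.59), Lce1l (0.30) and Lce1g (0.19) did not pass. Lce1m was the one gene below 0, at -0.42, and read 5.67, 8.31 and 8.92 in CD34+ arrays, against 6.87, 8.58 and 8.97 in CD34- arrays.

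Of the 4 Lce3 genes, known in human skin to rise after barrier damage, 0 passed in limma. At an unadjusted p under 0.05, Lce3b was the one that did so, and it read 5.89, 6.57 and 7.24 in CD34+ arrays, against 5.87, 6.06 and 6.15 in CD34- arrays. Its log2 fold change was 0.55 (limma adjusted p = 0.0765), and it passed on means of arrays 1-2, 3-4 and 5-6 (limma adjusted p = 0.0127). Lce3c was at 0.22, Lce3a at 0.07 and Lce3f at -0.14. Lce3a turned to -0.02 under a further quantile normalization and to -0.03 under median centring, and Lce3f was lower without CD34+ arrays 1, 3 and 5.

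Loricrin, the most abundant protein of the mature envelope, read 10.35, 10.94 and 11.12 in CD34+ arrays, against 9.72, 10.60 and 10.75 in CD34- arrays. The groups overlapped, and the log2 fold change of 0.44 did not pass (limma adjusted p = 0.131). Additional probe sets of Lor stood at 0.19 and -0.22, and none passed. Involucrin, an early scaffold protein, read 6.17, 6.71 and 7.36 in CD34+ arrays, against 6.62, 7.17 and 7.37 in CD34- arrays. It stood at -0.34 with a 95% interval of -0.75 to 0.07.

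Genes of the filaggrin type carry an S100-like calcium-binding head fused to repeats, and 0 of the 5 passed in limma, against 1 at an unadjusted p under 0.05. Flg read 3.81, 5.18 and 6.09 in CD34+ arrays, against 3.69, 4.46 and 5.05 in CD34- arrays, at 0.68 (limma adjusted p = 0.179). Hrnr read 3.84, 5.73 and 6.98 in CD34+ arrays, against 5.01, 5.82 and 6.63 in CD34- arrays. Hrnr was at -0.29 with an interval of -1.39 to 0.81, the array spread being wider than the difference, and at 0.14 without CD34+ arrays 1, 3 and 5. Rptn, low on the scale at 3.00 to 3.76, came close to the threshold at 0.35 (limma adjusted p = 0.0524) and passed on means of arrays 1-2, 3-4 and 5-6 (limma adjusted p = 0.0353). Further probe sets of Rptn were at 0.05 (limma adjusted p = 0.765) and 0.27 (limma adjusted p = 0.340) over all probe sets. Tchh, a protein of the inner root sheath, was at -0.12 and Tchhl1 at 0.10. Cdsn, the adhesive protein of corneodesmosomes, read 6.22, 7.27 and 7.70 in CD34+ arrays, against 6.51, 7.28 and 8.06 in CD34- arrays. Cdsn was at -0.14 (-0.71 to 0.44), and at 0.12 under a further quantile normalization.

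**Figure D3:**
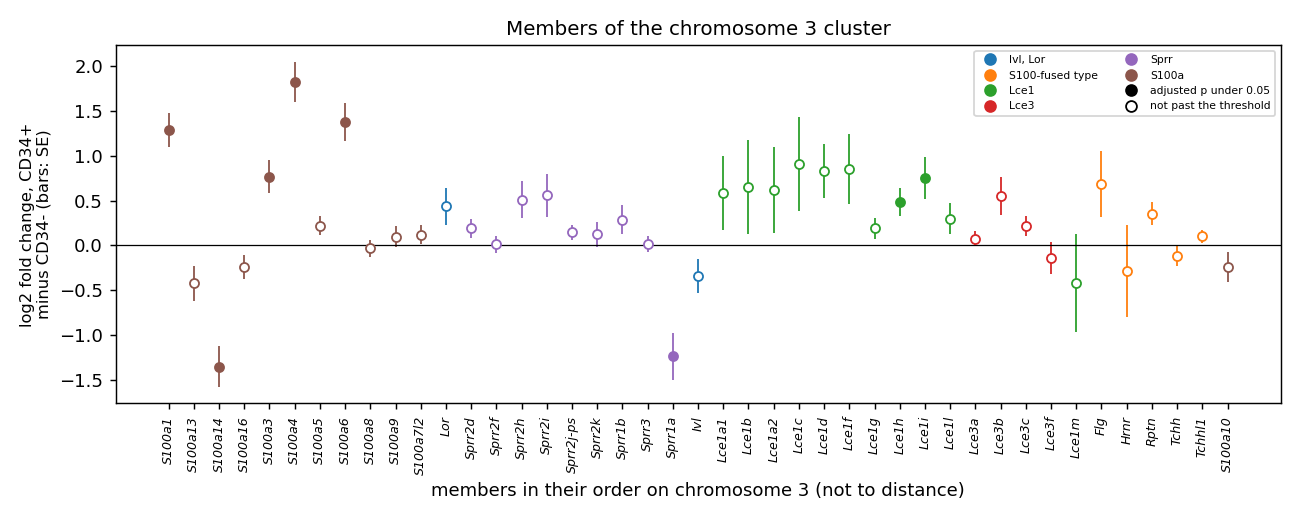
Log2 fold change of CD34+ over CD34- keratinocytes (bars, SE) for the 43 genes on chromosome 3, in RefSeq order and evenly spaced. The S100a genes at the left hold the highest and the lowest values, and the Lce1 run lies mostly above 0.

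Variation between arrays was itself patterned in the late genes. Arrays 3 and 4 were the 2 lowest of their fraction, in both fractions, for 11 of the 50 genes. These were 8 of the 11 Lce1 genes (Lce1a1, Lce1a2, Lce1b, Lce1c, Lce1d, Lce1f, Lce1l and Lce1m) with Flg, Hrnr and Lor, and no S100a, Sprr, Tgm or Lce3 gene. The count was not made over all 18193 genes, so the pattern is not shown to be particular to late genes. The mean log2 level over the 11 Lce1 genes was 7.15, 7.27, 6.05, 6.03, 7.31 and 7.64 on CD34+ arrays 1 to 6, against 6.75, 6.58, 5.71, 5.64, 6.80 and 6.80 on CD34- arrays 1 to 6. Arrays 3 and 4 thus lay below the other 4 in either fraction. The labels do not say that arrays of the same number share an isolation or arrays 3 and 4 an RNA.

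Taken by consecutive arrays, the Lce1 mean was higher in CD34+ cells each time. It was 7.21 in CD34+ against 6.67 in CD34- cells over arrays 1 and 2, 6.04 against 5.68 over arrays 3 and 4, and 7.48 against 6.80 over arrays 5 and 6. An alternative left out arrays 3 and 4 of both fractions, and was chosen after these arrays were seen to read low for most Lce1 genes. In that setting 14 of the 50 genes were higher in place of 7. Over all 18193 genes 1135 were higher in place of 1454. Of the Lce1 genes 7 of 11 then passed, with Flg and Lor, and the Lce1 median was 0.68. Leaving out arrays picked on the values of these genes narrows their spread, so the added calls are no separate support. Without CD34+ arrays 1, 3 and 5, Lce1i and Lce1h did not pass, and the median was 0.57. The number of Lce1 calls thus ran from 0 to 8 over the settings tried, while the family median ran from 0.41 to 0.87.

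**Figure D4:**
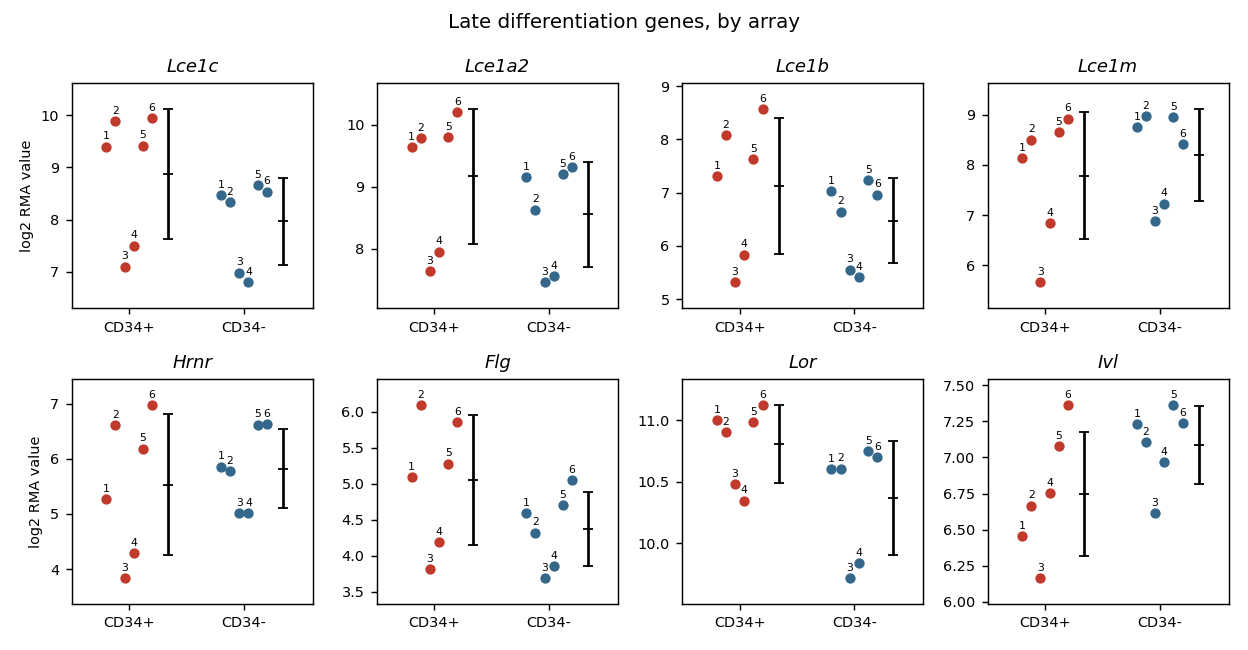
Log2 level on each array of 8 late differentiation genes, CD34+ left and CD34- right, with array numbers as points and mean ± SD as bars (n = 6). Arrays 3 and 4 lie lowest in both fractions for the Lce1 genes shown, Hrnr, Flg and Lor, and less so for Ivl.

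For 44 of the 50 genes (88.0%), and for 83.4% of all genes, the range over 6 arrays was larger in CD34+ than in CD34- arrays. The median ranges of the 50 genes were 1.07 log2 units in CD34+ and 0.46 in CD34- arrays. On even-numbered arrays alone, a check chosen after seeing the data that leaves out CD34+ arrays 1, 3 and 5, the range was larger in CD34+ arrays for 35 of the 50 genes and for 51.4% of all genes. Lce1m had the widest range in either fraction, 3.25 in CD34+ and 2.09 in CD34- arrays. Low levels limit 19 of the 50 genes, which averaged under 4 on the log2 scale, and 4 of them (S100a7l2, Sprr2f, Sprr2j-ps and Tgm6) never rose above the Trpn range.

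The wider machinery of the envelope was read from a list of scaffold and barrier genes. Of its 41 measured genes 13 were lower in CD34+ cells and 1 higher, with a median log2 fold change of -0.36. Over all genes 18.1% were lower and 7.99% higher. The counts of the list were 9 and 2 and its median -0.11 without CD34+ arrays 1, 3 and 5. Of all 18193 genes 1900 were then lower and 1602 higher. The background of all genes holds many low genes. When only the 12218 genes averaging at least 4 on the log2 scale were tested, on all 12 arrays, 3332 were lower and 1107 higher. Their median was -0.15. The gene lists, here and below, were not counted under that filter. The fatty acid elongase Elovl4, which makes barrier lipids, fell by 1.59 (limma adjusted p = 0.000831), the suprabasal keratin Krt77 by 1.23 (limma adjusted p = 0.000565) and the plakin envoplakin, Evpl, by 1.00 (limma adjusted p = 0.00195). Calml3, a calmodulin-like protein of epithelia, went the other way. It read 10.76, 11.57 and 12.05 in CD34+ arrays, against 9.32, 9.59 and 10.20 in CD34- arrays, with no overlap and a rise of 1.90 (limma adjusted p = 4e-05). The suprabasal keratins Krt10 (-0.16) and Krt1 (-0.25) and the desmosomal plakin Dsp (0.03) did not pass.

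Regulators of keratinocyte differentiation were also lower, 15 of 27 with 2 higher and a median of -0.53. Over all genes 18.1% were lower and 7.99% higher. Without the same 3 arrays the counts were 8 and 3, against 1900 lower and 1602 higher of all 18193 genes. Junb, a subunit of AP-1, read 5.70, 6.16 and 7.29 in CD34+ arrays, against 7.59, 8.34 and 8.81 in CD34- arrays, with no overlap, and fell by 1.96 (limma adjusted p = 0.000181). Gata3, a zinc finger factor of epidermis and inner root sheath, fell by 1.66, the lipid receptor Ppara by 1.59 and Ovol2, a repressor that keeps epithelial fate, by 1.02. Of factors that drive barrier formation, Klf4 (-0.45) and Grhl3 (-0.53) passed with 12 arrays but not without CD34+ arrays 1, 3 and 5, whereas Grhl1 (-0.88) passed both times. Hopx rose by 0.77 and Prdm1 by 0.65.

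Of 11 partners and receptors of S100 proteins 5 were lower in CD34+ cells, and 2 without CD34+ arrays 1, 3 and 5. Over all 18193 genes 18.1% were lower, and 1900 genes without those arrays. Anxa5 fell by 0.90 (limma adjusted p = 0.000291) and Cacybp, which binds S100a6, by 0.73 (limma adjusted p = 0.000955). Ahnak, Anxa1 and Anxa2 fell by 0.55, 0.49 and 0.41, and none of these 3 passed without CD34+ arrays 1, 3 and 5. Anxa2, the partner of S100a10, read 12.25, 12.57 and 12.81 in CD34+ arrays, against 12.63, 12.99 and 13.06 in CD34- arrays.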

How the data were processed

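The values were log2 expression values per probe set, made by the authors with RMA, per the submitters' processing notes. The RMA version, and whether all 12 arrays were normalized together, are not given in the sources used here. Of the 45037 probe sets that are not controls, 34945 were tied to 1 gene, 932 to several and 9160 to none in GEO's platform annotation, with symbols updated to RefSeq through Entrez IDs. Per gene the probe set with the highest mean over 12 arrays was used, which gave 18193 genes. The 50 genes had 67 probe sets, and 4 more probe sets of the rule, tied to several genes, were set aside. Flg2 and Crnn, also named by the rule, are not analysed here. CD34+ was compared with CD34- by limma (version 3.58.1, under R 4.3.3), using lmFit and eBayes without a block, two-sided, with Benjamini-Hochberg adjustment over all 18193 genes and a threshold of 0.05. The fit was tested on simulated data. Arrays have no counts, so that their number limits the precision. For 10 genes with several probe sets the others were tested over all probe sets. Every gene of the rule is named. Full values are given for genes past the threshold, for the highest of each family and for the widest range. Only selected genes of the pathway and marker lists are named. The genes, lists and alternatives were chosen with earlier results of these data known. Alternatives changed the normalization, filter, probe set rule, arrays and block.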

Additional observations from a re-analysis of the deposited data

Results flagged for a closer look

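Among 100 sets of 6 arrays, 50 genes in each of the 2 fractions, 3 held an array far from the other 5, and chance flags about 1 in 20. S100a9 read 3.69 on CD34+ array 6, with the next array of that fraction at 3.27. Tgm2 read 7.06 on CD34+ array 2, with the next at 5.83. Tgm3 read 4.53 on CD34- array 3, below the next at 4.72. None of these genes passed the test between the fractions.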

How the results depend on the processing

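Tgm5, S100a4, S100a6 and S100a1 passed in the same direction under all 24 alternatives, although S100a1 was at 0.78 with the mean of all probe sets. S100a14 (-1.21, limma adjusted p = 0.0997), Sprr1a (-0.95, limma adjusted p = 0.0926) and S100a3 (0.86, limma adjusted p = 0.0546) were lost only on even-numbered arrays of both fractions, which leave 3 arrays each. The filter at 4 on the log2 scale leaves S100a3 out. Lce1i passed under 14 and Lce1h under 13 of the 24, and 25 genes passed under none. Signal near the Trpn controls limits the low genes.

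The count of genes higher, 7, was 4 on even-numbered arrays, 5 to 13 on leaving out single arrays (13 without CD34+ array 4) and 14 without arrays 3 and 4 of both fractions. With the array number as a replicate block it was 15, with consecutive array numbers as a replicate block 15, and with means of consecutive arrays and that block 18. Over all genes these blocks gave, in the same order, 1471, 1302 and 1490 higher, against 1454 in the main fit. The array number as a block added Flg, Lce1a1, Lce1a2, Lce1c, Lce1d, Lce1f, Lor and Sprr2i. Both blocks of consecutive arrays, and leaving out arrays 3 and 4, were chosen after seeing the data. Arrays 3 and 4 were picked on the low values of most Lce1 genes. The planned fit on means of arrays 1-2, 3-4 and 5-6 without a block gave 9 higher and 3 lower, and over all genes 1802 and 3510. The count of genes lower, 2, was 4 with the mean of all probe sets (S100a10 and S100a16 added) and 0 by limma on even-numbered arrays, where 3 had an unadjusted p under 0.05. It was 2 on leaving out any single array. Whether array numbers pair the fractions was not settled. Deviations of same-numbered arrays correlated at -0.24 to 0.49, with 3 of 6 best with their own number, and those of consecutive pairs at 0.08, 0.05 and 0.25, each best with its own pair. The cause of the added calls was not tested.

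Over all genes, 1454 higher became 904 on centring each array on its median, 626 on even-numbered arrays and 1041 to 2068 on leaving out single arrays. The count higher was 1602 without CD34+ arrays 1, 3 and 5. The 3296 lower became 1900 without CD34+ arrays 1, 3 and 5, 725 on even-numbered arrays and 2627 to 3889 on leaving out single arrays. Of all calls 69.4% were lower, against 54.9% (2075 higher, 2522 lower) after a further quantile normalization and 80.7% (904 higher, 3785 lower) after centring, under which the median over all genes shifted by -0.10 on the log2 scale. Without CD34+ arrays 1, 3 and 5 the share was 54.3%.

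Signs turned only in genes that did not pass, and the cause was not tested. Under a further quantile normalization the log2 fold changes were 0.12 for Cdsn, -0.023 for Lce3a, -0.020 for S100a9, -0.066 for Sprr2f, -0.10 for Sprr3 and -0.0049 for Tgm3. Under median centring they were -0.026 for Lce3a, -0.0053 for S100a9, -0.089 for Sprr2f, -0.085 for Sprr3, -0.0012 for Tchhl1 and -0.074 for Tgm3. Without CD34+ arrays 1, 3 and 5 they were 0.18 for Cdsn, 0.14 for Hrnr, -0.030 for Lce1g, -0.071 for Sprr2f, -0.00018 for Sprr2i, -0.11 for Sprr2k, -0.028 for Sprr3, 0.12 for Tgm1 and -0.11 for Tgm3. On even-numbered arrays they were 0.12 for Cdsn, 0.16 for Hrnr, -0.050 for Lce1g, -0.020 for Lce3a, 0.032 for S100a10, 0.0068 for S100a8, -0.043 for Sprr2f, -0.15 for Sprr2k, -0.066 for Sprr3, 0.19 for Tgm1 and -0.14 for Tgm3. Without arrays 3 and 4 of both fractions they were 0.038 for Hrnr, -0.020 for S100a7l2, -0.0046 for Sprr2f, 0.018 for Tchh and -0.029 for Tgm3. With the mean of all probe sets Tgm3 was at -0.096. On leaving out single arrays the ranges that crossed 0 were -0.30 to 0.053 for Cdsn, -0.58 to 0.048 for Hrnr, -0.68 to 0.0075 for Lce1m, -0.061 to 0.019 for S100a8, -0.025 to 0.047 for Sprr2f, -0.021 to 0.055 for Sprr3 and -0.052 to 0.090 for Tgm3.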
